A study of Prunus persica with 24 samples.

Results

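Prupe.4G261900 and Prupe.4G262200 are the pair of endopolygalacturonase genes at the peach flesh texture locus. They were taken by identifier from both FPKM tables (fragments mapped to a transcript, scaled to its length and to all mapped fragments), and are 2 of 26873 identifiers. Each had 1 row per table, and both passed the filter on low values, which 15420 identifiers passed. The RNA came from flesh of harvested peach (Prunus persica) stored at 35 °C, the high temperature, or at 25 °C, the common one, and sampled on days 1, 2, 3, 5, 6 and 7. All fruit had first been kept at 5 °C for 2 days and were then split at random between the temperatures. By the labels, each of the 12 groups of a temperature and a day has 2 libraries. The tables hold 1 value per group, so no value has a spread between replicates. The labels do not name the cultivar or say whether its flesh melts. The flesh label was not checked against marker genes, since the tables give no gene names.

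Endopolygalacturonases cut the homogalacturonan backbone of pectin inside the chain, once methyl groups have been removed from it. Pectin holds neighbouring plant cells together, and its breakdown accompanies the late, rapid softening of melting-flesh peaches. In peach, endopolygalacturonase genes on chromosome 4 are known for alleles that separate melting from non-melting flesh and freestone from clingstone fruit. Their transcripts are known to build up during ripening, when the fruit makes ethylene.

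Both genes were lower at 35 °C than at 25 °C on each of the 6 days, and they differed widely in how much lower. The share of all genes lower by any amount on each of the 6 days is not given here. Prupe.4G261900, the less abundant gene of the pair, was higher on every later day than on day 1 at 25 °C. At 35 °C it had a few percent or less of its 25 °C level from day 2, apart from 5.71% on day 5. Prupe.4G262200 was among the most abundant transcripts of the flesh at both temperatures. It was higher on every later day than on day 1 at both, and on the 6 days its level at 35 °C was between 25.1% and 56.7% of that at 25 °C. In bulk flesh, fewer cells with a transcript and less of it per cell cannot be told apart.

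**Figure D1:**
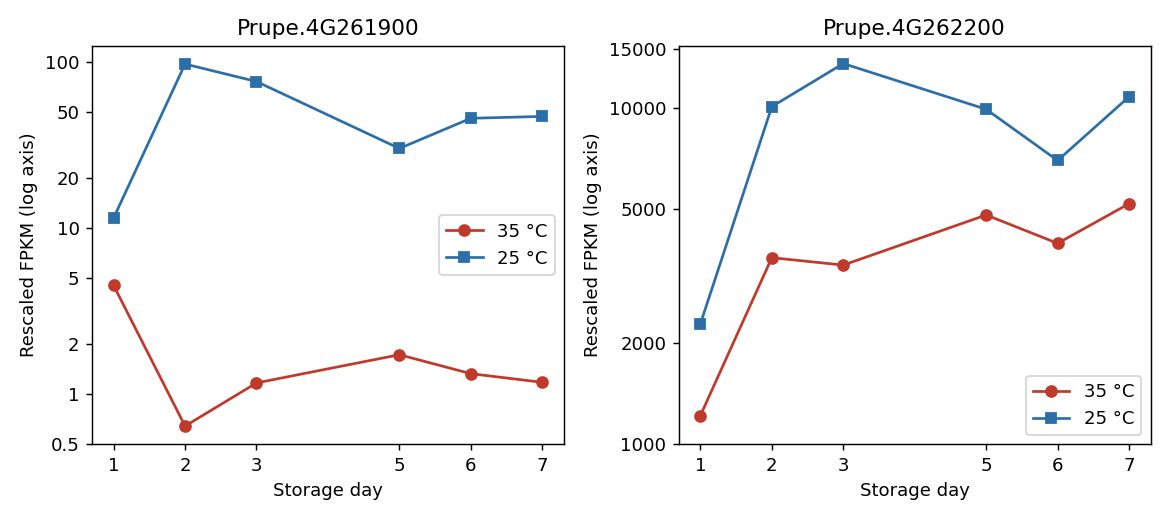
Rescaled FPKM (log axis) of Prupe.4G261900, left, and Prupe.4G262200, right, by storage day, with 35 °C as circles and 25 °C as squares, each point being 1 value with no replicate error. The 35 °C points of Prupe.4G261900 lie between 0.643 and 4.53 FPKM, below all its 25 °C points, while Prupe.4G262200 is higher on every later day than on day 1 at both temperatures.

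Levels are given as FPKM after rescaling all columns together by factors between 0.922 and 1.06. Prupe.4G261900 had 4.53 FPKM on day 1 at 35 °C, then 0.643, 1.17, 1.73, 1.33 and 1.18 FPKM on days 2, 3, 5, 6 and 7. At 25 °C it had 11.5 FPKM on day 1, then 97.8, 76.8, 30.3, 46.1 and 47.3 FPKM. The temperatures did not overlap: the highest value at 35 °C, on day 1, was below the lowest at 25 °C, also on day 1. Among all 15420 genes, 1.73% had every 35 °C value below every 25 °C value. Over the 6 days its mean was 1.76 FPKM at 35 °C, against 51.6 FPKM at 25 °C.

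Within each temperature the order of the days differed for this gene. At 35 °C the levels ran, from low to high, day 2, day 3, day 7, day 6, day 5 and day 1. At 25 °C the order was day 1, day 5, day 6, day 7, day 3 and day 2. Day 2 was thus the lowest day at 35 °C and the highest at 25 °C. Without replicate values, none of the neighbours in these orders can be said to differ beyond their error. Days 3 and 7 at 35 °C were 1.17 and 1.18 FPKM, and days 6 and 7 at 25 °C were 46.1 and 47.3 FPKM.

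Prupe.4G262200 had 1217 FPKM on day 1 at 35 °C, then 3590.3, 3412, 4811, 3961 and 5198 FPKM on days 2, 3, 5, 6 and 7. At 25 °C it had 2281 FPKM on day 1, then 10108, 13578, 9924, 6988 and 10817 FPKM. Day 1 was the lowest day at both temperatures, and the peak fell on day 7 at 35 °C and on day 3 at 25 °C. The temperatures overlapped over the 6 days only through day 1 at 25 °C, which lay below the later days at 35 °C. On days 2 to 7 every 35 °C value was below every 25 °C value, as in 7.06% of all genes. From low to high the order was day 1, day 3, day 2, day 6, day 5 and day 7 at 35 °C, and day 1, day 6, day 5, day 2, day 7 and day 3 at 25 °C.

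The pair stood far apart in abundance. Prupe.4G262200 ranked 68th on day 1 and between 8th and 15th on days 2 to 7 at 35 °C, counted from the most abundant of 15420 genes. At 25 °C it ranked 43rd on day 1 and between 3rd and 8th later. Its share of the summed FPKM of a column was 0.163% on day 1 and up to 0.737% on day 5 at 35 °C, against 0.268% on day 1 and up to 1.73% on day 3 at 25 °C. Prupe.4G261900 was above 33.0% of genes on day 1 at 35 °C and above 4.09% to 16.0% of them on later days. At 25 °C it was above 54.5% of genes on day 1 and above 76.4% to 90.6% later.

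Whether storage temperature changed the level was asked first within each day, where 2 single values are compared with no test. Differences were taken between log2(FPKM + 1) values, and are therefore understated for low genes. Prupe.4G261900 at 35 °C minus 25 °C was -1.18 on day 1. It was then -5.91, -5.16, -3.52, -4.34 and -4.47 on days 2, 3, 5, 6 and 7. As FPKM, its level at 35 °C was 39.2% of that at 25 °C on day 1, and between 0.658% (day 2) and 5.71% (day 5) later. On day 2 only 5 of 15420 genes had a lower difference, and on day 6 only 1 did; on day 1 there were 400. The gene was at least 2-fold lower at 35 °C on 6 of 6 days, as were 10 genes in all, or 0.0649%.

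For Prupe.4G262200 the difference was -0.91 on day 1, and -1.49, -1.99, -1.04, -0.82 and -1.06 on the later days in order. It was at least 2-fold lower at 35 °C on 4 of 6 days, namely days 2, 3, 5 and 7. The share of all genes that were so on as many days is not given here. The share of all genes at least 2-fold lower was 3.35% on day 1, and in day order 11.6%, 6.91%, 7.41%, 5.78% and 4.75% after it. Its difference was farthest from those of other genes on day 3, when 155 genes were lower, while on day 6 there were 1296. With quantile normalization, which makes the columns' distributions alike, its day 1 difference shrank to -0.54. Days 2 and 5 gave -0.75 and -0.45, and the others lay between -1.62 and -0.89. Only days 3 and 7 were then at least 2-fold lower.

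**Figure D2:**
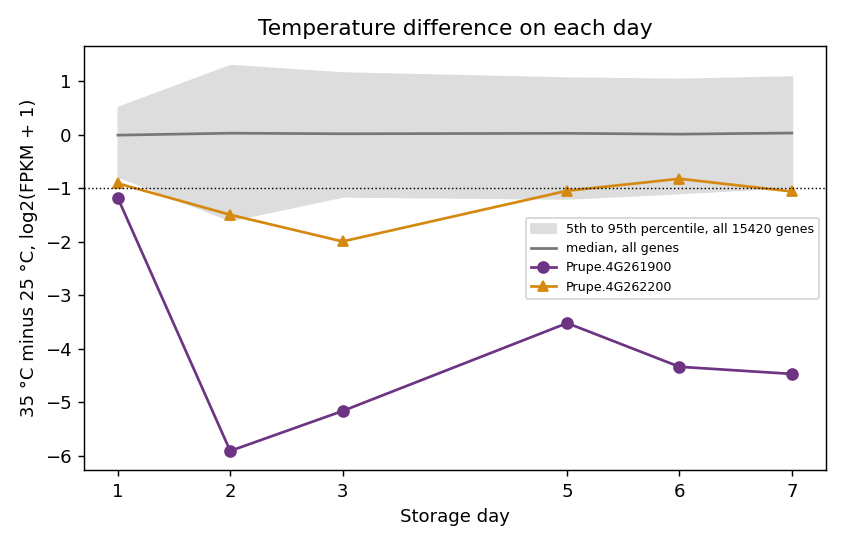
Difference between 35 °C and 25 °C in log2(FPKM + 1) by storage day, for Prupe.4G261900 (circles) and Prupe.4G262200 (triangles), with the median of all 15420 genes (grey line), the range from their 5th to 95th percentile (grey band) and 2-fold lower as a dotted line. Prupe.4G261900 lies below the band on all 6 days, at -1.18 on day 1 and between -5.91 and -3.52 later, and Prupe.4G262200 stays between -1.99 and -0.82.

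On day 1 the median difference of all genes was 0.00 and the 5th percentile was -0.77, and both genes lay below that percentile with the scaling used here. Prupe.4G262200 was inside the band of the 5th to 95th percentile on day 2, at -1.49 where the 5th percentile was -1.59. It was also inside it on days 5 and 6. The median of all genes stayed between 0.00 and 0.04 on the 6 days.

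Over the 6 days, the mean temperature effect was tested with limma across all 15420 genes, with day as a term. The error rested on the spread of the difference between days, which limma moved toward a trend over all genes. The genes' own SD of the difference over the 6 days was 1.64 for Prupe.4G261900 and 0.44 for Prupe.4G262200. Prupe.4G261900 fell by 4.10 ± 0.51 on the log2 scale at 35 °C (SE; 95% interval -5.26 to -2.93, limma adjusted p = 0.0187, lower on 6 of 6 days). Prupe.4G262200 fell by 1.22 ± 0.27 (SE; 95% interval -1.84 to -0.60, limma adjusted p = 0.0313, lower on 6 of 6 days). Of all genes, 5.78% were called lower and 12% were called in either direction. A total of 295 genes had a larger mean fall than Prupe.4G262200, and 0 had a larger one than Prupe.4G261900; with a pseudocount of 0.1 in place of 1, there were 525 and 2.

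With 1 day left out, both effects kept their direction, with Prupe.4G261900 between -4.68 and -3.73, while the adjusted calls were often lost. Prupe.4G261900 had log2 changes of -3.88, -4.21 and -4.05 without day 3, 5 or 6, and limma adjusted p was then 0.0701, 0.0686 and 0.0771 (range over all alternatives 7.16e-04 to 0.0771). Prupe.4G262200 stayed between -1.30 and -1.06, but limma adjusted p was 0.0753, 0.104, 0.0715, 0.0830 and 0.0688 without day 2, 3, 5, 6 or 7. Among all genes, limma called 211 without day 2, 0 without day 3, 0 without day 5, 1 without day 6 and 129 without day 7, against 1849 with all days; 4197, 3809, 4372, 4109 and 4497 genes had an unadjusted p under 0.05 in these fits. For Prupe.4G262200 the limma adjusted p was also 0.0519 with quantile normalization, 0.183 with no filter on low values and 0.116 when 4 groups (2 temperatures by 2 periods) replaced the day term, and over all alternatives it ranged from 0.0225 to 0.183. The 35 °C and the 25 °C columns come from separate tables. Not given in the sources used here is whether the tables share a normalization, so temperature and table cannot be told apart in this effect.

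Whether the temperature effect differed between the genes was tested by the difference of their within-day differences. Prupe.4G261900 was further below its 25 °C level than Prupe.4G262200 on 6 of 6 days, by 2.88 ± 1.42 log2 units (SD over 6 days). The gap was 0.28 on day 1 and reached 4.42 on day 2. An exact paired permutation test over the 6 days, two-sided, gave p = 0.03125, which is the smallest it can give. With 5 days the smallest possible value is 0.0625, so the test cannot pass 0.05 once any day is left out.

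The ratio between the FPKM levels of the 2 genes shows the same difference without a reference to other genes. The FPKM of Prupe.4G262200 over that of Prupe.4G261900 was 269 on day 1 at 35 °C, and 5580.1, 2915, 2778, 2976 and 4403 on days 2, 3, 5, 6 and 7. At 25 °C the ratio was 198 on day 1, and 103, 177, 327, 152 and 229 on the later days. On day 1 the ratios of the 2 temperatures were close, and on each later day the ratio was at least 2778 at 35 °C and at most 327 at 25 °C. A factor that acts on a whole column cancels in this ratio. How reads that match both genes were assigned was not given in the sources used here either, and such reads would make the level of the weaker gene uncertain. Neither gene had values identical to those of another identifier.

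**Figure D3:**
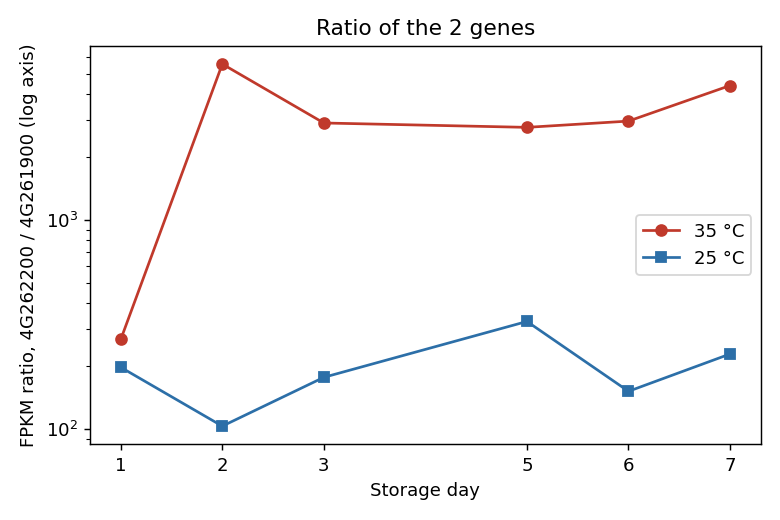
Ratio of the FPKM of Prupe.4G262200 to that of Prupe.4G261900 (log axis) by storage day at 35 °C (circles) and 25 °C (squares), 1 value each. The ratios are 269 and 198 on day 1, then between 2778 and 5580.1 at 35 °C and between 103 and 327 at 25 °C.

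The next question was how each gene moved over storage. From day 1 to day 2 at 35 °C, Prupe.4G261900 went down to 0.142 of its level while Prupe.4G262200 went up 2.95-fold. At 25 °C, the same step took Prupe.4G261900 up 8.47-fold and Prupe.4G262200 up 4.43-fold. After this step, 10.4% of all genes were up by 2-fold or more and 10.9% down by as much at 35 °C, against 4.52% up and 6.17% down at 25 °C. At 35 °C, 607 genes had a log2 step at least as low as that of Prupe.4G261900, itself included, and 584 had one at least as high as that of Prupe.4G262200. At 25 °C, 25 genes had one at least as high as that of Prupe.4G261900, and 68 as that of Prupe.4G262200. These steps compare single values.

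Later steps were smaller. The largest after day 2 was that of Prupe.4G261900 at 25 °C from day 3 to day 5, when its level became 0.395 of that on day 3; 117 genes had a log2 step as low or lower, itself included. On days 2 to 7 the highest value of Prupe.4G261900 was 2.69 times the lowest at 35 °C and 3.23 times at 25 °C. For Prupe.4G262200 these ratios were 1.52 at 35 °C and 1.94 at 25 °C.

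Relative to day 1, all 5 later days of Prupe.4G261900 were lower at 35 °C, by 1.02 to 1.75 log2 units, and all 5 were higher at 25 °C, by 1.32 to 2.98 units. A total of 199 genes, or 1.29%, were below day 1 on all 5 later days at 35 °C and above it on all 5 at 25 °C. All 5 later days of Prupe.4G262200 were higher than day 1 at both temperatures, by 1.49 to 2.09 units at 35 °C and by 1.61 to 2.57 units at 25 °C, a pattern of 12% of genes. Against day 1, which is 1 value per temperature, the pair thus moved the same way at 25 °C and opposite ways at 35 °C. After day 2 no such contrast was seen. At 25 °C their steps went opposite ways from day 2 to 3 and from day 5 to 6, and the same way otherwise. At 35 °C they went opposite ways from day 2 to 3 and from day 6 to 7, and the same way otherwise. Over 6 columns each, Pearson's r between their log2 levels was -0.81 at 35 °C and 0.85 at 25 °C, a description in which day 1 is the outlying point at both temperatures.

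As a mean of days 2, 3, 5, 6 and 7 minus day 1, a summary chosen after these values had been seen and given with no test, Prupe.4G261900 stood at -1.34 log2 units at 35 °C and at 2.16 units at 25 °C. For Prupe.4G262200 the summary was 1.76 units at 35 °C and 2.14 units at 25 °C. Day 1 is 1 value at each temperature and has no spread. As FPKM, the mean of the later days of Prupe.4G261900 was 0.267 times its day 1 level at 35 °C and 5.17 times at 25 °C, and that of Prupe.4G262200 was 3.45 times and 4.51 times. A constant factor between the tables cancels in these FPKM ratios.

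The change at 35 °C minus that at 25 °C was -3.50 log2 units for Prupe.4G261900, and 7 of 15420 genes had a lower one. For Prupe.4G262200 it was -0.38 units, and 3243 genes had a lower one. Without 1 of the later days these values ran from -3.79 to -3.19 and from -0.49 to -0.20. On this scale the pseudocount keeps part of a constant factor for a gene as low as Prupe.4G261900, for which the value was -4.12 with a pseudocount of 0.1.

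The planned comparison over storage set the mean of the late days (5, 6 and 7) against that of the early days (1, 2 and 3) and called neither gene at either temperature. At 35 °C the change was -0.17 ± 0.67 for Prupe.4G261900 (SE; limma adjusted p = 0.976) and 0.91 ± 0.65 for Prupe.4G262200 (limma adjusted p = 0.778). At 25 °C it was -0.15 ± 0.67 for Prupe.4G261900 (limma adjusted p = 0.943) and 0.42 ± 0.65 for Prupe.4G262200 (limma adjusted p = 0.814). Of all genes, limma called 1 at 35 °C, or 0.00649%, and 0 at 25 °C, with 1294 and 1614 at an unadjusted p under 0.05. This grouping puts day 1 together with days 2 and 3, from which both genes were apart, and that gap is part of its error. The difference of these changes between 35 °C and 25 °C was -0.02 ± 0.95 for Prupe.4G261900 and 0.49 ± 0.92 for Prupe.4G262200. Its limma adjusted p was 0.99984 for each gene. Limma called 0 genes, and 471 reached an unadjusted p under 0.05. Without day 1, the change of Prupe.4G261900 was -1.08 ± 0.24 at 25 °C (SE; limma adjusted p = 0.210). At 35 °C it was then 0.35 ± 0.24 (limma adjusted p = 0.682). The difference became 1.43 ± 0.34 (limma adjusted p = 0.396), of opposite sign and not called.

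The pair was set beside the identifiers of neighbouring number, Prupe.4G260900 to Prupe.4G263200, a list taken from the numbering. All 24 identifiers of this range were in the tables. Of the 22 others, 5 passed the filter on low values, and 6 were listed at 0 in all 12 columns. Prupe.4G262000 and Prupe.4G262100, numbered between the genes, and Prupe.4G261800, numbered just before them, reached at most 0.111 FPKM in any column. None of the 5 that passed was called for temperature (0 higher, 0 lower, against 12% of all genes). So few genes cannot show a departure from that share. Their median effect was -0.30, beside 0.02 over all genes.

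**Figure D4:**
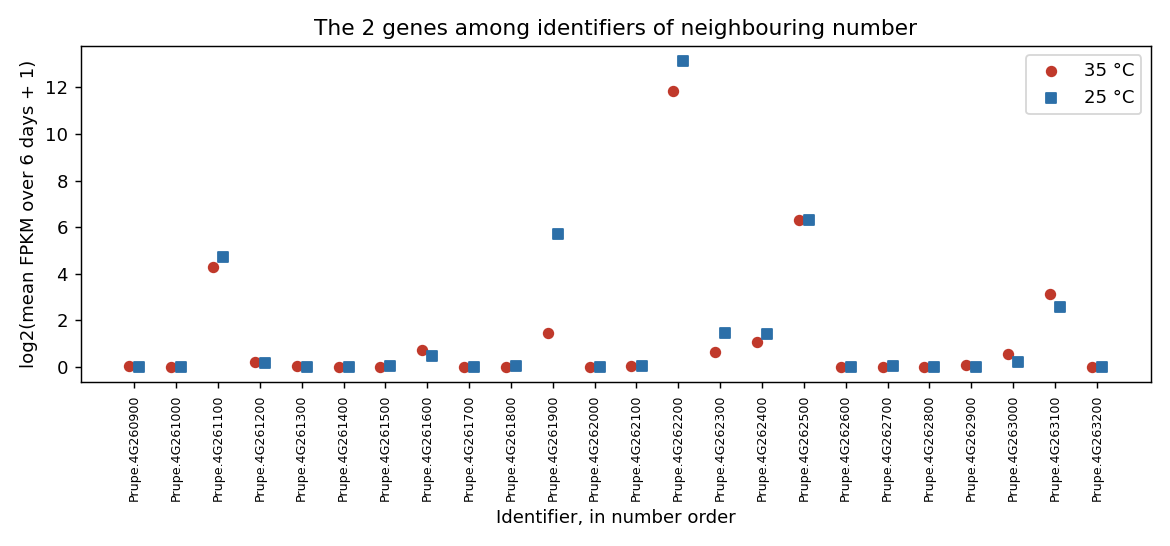
Mean FPKM over 6 days, as log2(mean + 1), of 24 identifiers in number order, at 35 °C (circles) and 25 °C (squares). Prupe.4G262200 is the highest point of the range at both temperatures, with means of 3698 and 8949 FPKM, and most of the others lie at or near 0.

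The next identifier up, Prupe.4G262300, had a mean of 0.578 FPKM at 35 °C, against 1.71 FPKM at 25 °C. Its log2 difference of -0.74 ± 0.23 was not called (limma adjusted p = 0.0631). Prupe.4G262500, the most abundant of the others, had means of 79.2 FPKM at 35 °C and 79.1 FPKM at 25 °C. For it the difference was 0.06 ± 0.18 (limma adjusted p = 0.839).

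The genes whose log2 levels ran most like each of the pair were found by Pearson's r over the 12 columns, which share any difference between days and temperatures. Nearest to Prupe.4G261900 were Prupe.7G266500 (r = 0.97), Prupe.3G192600, Prupe.8G134600, Prupe.1G186000 and Prupe.8G126800 (r = 0.95). Their mean levels were between 23.3 and 38.7 FPKM at 35 °C and between 43.5 and 76.7 FPKM at 25 °C. Their mean differences between the temperatures ran from -1.32 to -0.66 log2 units, against -4.10 for Prupe.4G261900 itself.

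Nearest to Prupe.4G262200 were Prupe.1G182700 (r = 0.96), Prupe.8G125800, Prupe.8G188200, Prupe.6G294000 and Prupe.8G240100 (r = 0.94). Prupe.8G125800 had the widest difference of these, with a mean of 41.9 FPKM at 35 °C and 157 FPKM at 25 °C. The lists shared 0 genes. Between the pair, r was 0.67 over the 12 columns, which placed Prupe.4G262200 at rank 1289 among the genes most like Prupe.4G261900.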

How the data were processed

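The authors deposited FPKM values in 2 tables, 1 per temperature, with 6 columns each and no replicate numbers; not given in the sources used here are how 2 libraries became 1 value, the genome build and the annotation. Libraries were directional and depleted of ribosomal RNA, per the labels' protocols. The submitters' processing notes name Cufflinks 2.1.1, TopHat2 2.0.10, Bowtie2 2.1.0, FastQC 0.10.1 and SAMtools 0.1.18, with no roles. Column sums ran from 651850 to 882184 FPKM. Read numbers could not be recovered from low values, so depth, counting intervals and detection limits are unknown.

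Rows were summed per identifier, and the 12 columns rescaled by median-of-ratios over 12194 identifiers above 1 FPKM in each. Identifiers with at least 1 FPKM in at least 2 columns were kept. Tests ran on log2(FPKM + 1) with limma 3.58.1 in R 4.3.3 (trended eBayes), with Benjamini-Hochberg adjustment over all 15420 genes and calls under 0.05. In a simulation, temperature effects were set in a small part of 15420 genes with independent noise. There limma called 72.5% of the 2-fold temperature effects, 90.0% of the 4-fold ones and 6 unchanged genes. Simulated late-minus-early changes of 2-fold were called in 40.0% of cases at 35 °C and in 27.5% at 25 °C. With 4-fold changes the rates were 90.0% and 82.5%. A 2-fold disparity between temperatures in that change was called in only 7.5% of cases, and a 4-fold disparity in 57.5%. An uncalled storage change near 2-fold is therefore not shown to be absent. Noise in the real columns may be shared between genes, so these rates may not hold for them. Days stand in for replicates, so p-values measure spread between days, not fruit. Genes most alike were the 5 with the highest r. The pair, the lists and the rules were chosen with earlier results of these data known, so the low level of Prupe.4G261900 at 35 °C is no independent finding. Alternatives were another pseudocount, scalings, filters, groupings of days and each day left out. No sequence was used here.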

Additional observations from a re-analysis of the deposited data

Results flagged for a closer look

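Prupe.4G261900 is listed because its course after day 1 went opposite ways at the 2 temperatures: below day 1 on 5 of 5 later days at 35 °C and above it on 5 of 5 at 25 °C. The change from day 1 to the mean of the later days differed by -3.50 on the log2 scale between 35 and 25 °C. No test of this difference is given, since day 1 is 1 value and the comparison was chosen after it had been seen. No group had enough values to look for an outlying sample.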

How the results depend on the processing

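No paired analysis was possible because replicate numbers are missing from the column names (pairing was by day only), so no replicate block or left-out replicate could be run; days were left out instead. The mean of days 2 to 7 minus day 1, with its alternatives, was chosen after seeing the data. For the temperature effect of Prupe.4G261900, limma adjusted p was just under 0.05 with no filter (0.0499) and without day 2 (0.0492). Without 1 day its log2 changes lay between -4.68 and -3.73. This effect kept its direction in every alternative run and lost its call without day 3, 5 or 6. That of Prupe.4G262200 lost its call with no filter (-1.22), with quantile normalization (-0.90), with 4 groups of temperature and period (-1.22) and without day 2, 3, 5, 6 or 7 (-1.30 to -1.06 without 1 day). With quantile normalization its differences on days 1, 2 and 5 moved to -0.54, -0.75 and -0.45. The genes called for temperature numbered 1849, and 397 with no filter, 1216 with a mean of at least 5 FPKM, 1214 with 4 groups, and 0 to 3006 without 1 day. The gap between the 2 genes was -3.40 to -2.57 without 1 day, where the exact test cannot pass 0.05. For late minus early storage, which was called for neither gene, Prupe.4G261900 at 35 °C ranged from -0.53 to 0.35 without 1 day, and at 25 °C from -1.08 to 0.41, with a slope of 0.085 per day. Prupe.4G262200 ranged from 0.40 to 1.18 at 35 °C, and at 25 °C from -0.37 to 0.92, with 0.88 under quantile normalization. The difference of these changes for Prupe.4G261900 was 0.0051 with a pseudocount of 0.1 and -0.94 to 1.43 without 1 day; for Prupe.4G262200 it was 0.23 to 0.77 without 1 day and 0.14 with quantile normalization. For days 2 to 7 minus day 1, given with no test, the value of Prupe.4G261900 at 35 °C was -1.88 with a pseudocount of 0.1, and every other alternative run moved a value by less than its standard error in limma. Why values and calls changed between the alternatives was not tested. What depth limits could not be judged, as depth is unknown.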
